A study of Mus musculus with 6 samples.

Results

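The transcripts described here are 9 growth factor genes of the spermatogonial stem cell niche, Cxcl12, Gdnf, Fgf2, Csf1, Igf1, Kitl, Lif, Bmp4 and Wnt5a, and the chemokine receptor gene Cxcr4. They were taken by gene name from the deposited count tables. All 10 names were found among the 41053 in the tables, and all 10 were among the 15263 genes that passed the filter on low counts. RNA came from cultures of adult mouse spermatogonial stem cells, from which sperm production is renewed, and polyadenylated transcripts were sequenced with strand kept. There were 3 lines labelled Ephb2-KO and 3 wild-type (WT) lines, each with 1 library and numbered 1 to 3. Every line had been electroporated with a plasmid carrying a green fluorescent reporter, with or without an sgRNA against Ephb2. Fluorescent cells were sorted and subcloned, so a line descends from sorted cells and the lines may differ by clone. Lines numbered 1 and 2 were at passage 20 in both groups, and lines numbered 3 were at passage 18 in both groups. The culture medium was StemPro-34 with supplements and growth factors that the labels do not name, and the labels do not say whether feeder cells were present. Transcript counts do not measure any protein added to the medium.

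A niche is the set of neighbouring cells that keeps a stem cell in its state. In the testis, Sertoli and peritubular myoid cells secrete glial cell line-derived neurotrophic factor (Gdnf), which acts on germ cells through Gfra1 and Ret. Cxcl12, a chemokine made by stromal and Sertoli cells, attracts cells that carry Cxcr4, and Csf1, Igf1, Kitl, Lif, Bmp4, Wnt5a and Fgf2 are also mostly made by somatic cells. Cultures of these stem cells are commonly grown on fibroblasts, whose matrix proteins include decorin, the product of Dcn. The question set here was which of the ligand transcripts went up and down between libraries together with stromal transcripts such as Dcn.

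Promoters of 4 genes are shown because the genes fall on either side of the passage comparison: Cxcl12 and Bmp4 were called in it, while Csf1 and Cxcr4 were not. The sequences are from RefSeq on GRCm38.p6 and cover the 250 bases before the annotated start, written 5′ to 3′ on the gene's strand, with motif matches on either strand in capitals. The motifs were the TATA box letters TATAAA, the CCAAT box and the GC box core GGGCGG. Windows that overlap a counted exon of their own gene were left out of this choice.
Cxcl12, chr6:117168285-117168534, plus strand: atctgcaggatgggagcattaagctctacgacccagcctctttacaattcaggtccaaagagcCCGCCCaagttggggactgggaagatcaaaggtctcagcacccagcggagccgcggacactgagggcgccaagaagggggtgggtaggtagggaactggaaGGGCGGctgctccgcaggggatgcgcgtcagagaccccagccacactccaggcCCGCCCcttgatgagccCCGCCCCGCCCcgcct
Bmp4, chr14:46390670-46390919, minus strand: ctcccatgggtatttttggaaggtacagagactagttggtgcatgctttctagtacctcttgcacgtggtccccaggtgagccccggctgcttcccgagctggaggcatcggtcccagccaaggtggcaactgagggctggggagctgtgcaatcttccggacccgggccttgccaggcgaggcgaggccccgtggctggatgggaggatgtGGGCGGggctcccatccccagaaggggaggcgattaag
Csf1, chr3:107760470-107760719, minus strand: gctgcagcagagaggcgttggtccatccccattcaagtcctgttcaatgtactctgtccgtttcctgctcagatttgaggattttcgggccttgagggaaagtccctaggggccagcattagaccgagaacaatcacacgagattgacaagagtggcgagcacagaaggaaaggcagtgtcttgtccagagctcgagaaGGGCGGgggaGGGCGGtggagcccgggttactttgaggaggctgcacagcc
Cxcr4, chr1:128592300-128592549, minus strand: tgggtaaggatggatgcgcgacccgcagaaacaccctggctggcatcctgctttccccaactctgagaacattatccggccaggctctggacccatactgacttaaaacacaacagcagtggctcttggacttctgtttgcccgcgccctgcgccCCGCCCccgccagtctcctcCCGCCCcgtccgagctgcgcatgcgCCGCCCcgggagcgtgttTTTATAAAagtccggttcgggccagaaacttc

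The GC box core occurred 5 times in the Cxcl12 window, the pair nearest the start overlapping by a base, 1 time in that of Bmp4, 2 times in that of Csf1 and 3 times in that of Cxcr4. Of all 32851 promoter windows of this length, 32.7% held it at least 1 time. The TATAAA letters occurred in the Cxcr4 window 2 times, overlapping on opposite strands at 30 and 32 bases before the start, and 12.4% of all windows held them. CCAAT occurred in none of these 4 windows and in 33.8% of all windows. GC made up 64.4% of the Cxcl12 window, 63.2% for Bmp4, 56.4% for Csf1 and 61.2% for Cxcr4, against a median of 52.4% over all windows. None of the 3 letter strings divided Cxcl12 and Bmp4 from Csf1 and Cxcr4. Wnt5a was named only, since 9 of the 10 genes had an entry.

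Depth and the other cells in the cultures are needed to read these values. Total counts per library ran from 21772404 to 33140336 in Ephb2-KO libraries and from 24928648 to 34047758 in WT libraries. Levels are given as CPM, counts scaled to library size with edgeR's TMM factors, and 3 counts corresponded to between 0.0803 and 0.147 CPM. Ephb2, the targeted gene, had 37.1, 16.5 and 13.4 CPM in Ephb2-KO libraries 1, 2 and 3, against 21.3, 27.1 and 10.8 CPM in WT libraries. Its transcript was thus not consistently lower in the lines labelled Ephb2-KO: it was lower for number 2 and higher for numbers 1 and 3. The group names follow the labels. The 16 germ cell transcripts summed to 4077, 3728 and 2138 CPM in Ephb2-KO libraries 1, 2 and 3, and to 3514, 4032 and 2430 CPM in WT libraries. The 25 stromal transcripts, such as Dcn and collagen genes, summed to 8003, 9344 and 33350 CPM in Ephb2-KO libraries, and to 5294, 7376 and 27880 CPM in WT libraries. Both libraries numbered 3 thus stood apart with the highest stromal sum and the lowest germ cell sum of their group. Markers of other testis cells were lower: 10 Sertoli markers summed to between 100 and 145 CPM in Ephb2-KO libraries and between 103 and 133 CPM in WT libraries, with Fshr at 0. The 7 myoid and smooth muscle markers summed to between 48.3 and 69.0 CPM in Ephb2-KO libraries and between 26.5 and 62.8 CPM in WT libraries. Leydig markers summed to at most 1.94 CPM in Ephb2-KO libraries and 2.12 CPM in WT libraries, with Hsd3b1 and Lhcgr at 0. Macrophage markers summed to between 7.75 and 18.0 CPM in Ephb2-KO libraries and between 8.36 and 21.1 CPM in WT libraries, with Cd68 the highest of them in every library and Fcgr1 at 0. Endothelial markers summed to between 7.13 and 15.6 CPM in Ephb2-KO libraries and between 6.68 and 14.8 CPM in WT libraries. In bulk RNA, fewer cells of a type and less RNA per cell cannot be told apart.

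Compared per kilobase of exon, Cxcl12 had the highest mean level of the 10 genes over the 6 libraries, 46.2 CPM per kilobase. Csf1, the growth factor of macrophages, followed at 20.7, Kitl, the ligand of the receptor Kit, at 8.44, and Cxcr4 at 6.87 CPM per kilobase. Lif, a cytokine of the interleukin 6 family, had a mean of 2.26 CPM per kilobase. The lowest means per kilobase were those of Fgf2 (0.950), Igf1 (0.835), Wnt5a (0.655), Gdnf (0.619) and Bmp4 (0.379). Cxcl12 ran from 11.1 to 117 CPM per kilobase over libraries and Csf1 from 5.52 to 32.2. Ranges overlapped between neighbours in this order except between Cxcr4 (from 3.40) and Lif (up to 3.14).

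Cxcl12 lies on the plus strand of chromosome 6 from 117168535 to 117181367 in GRCm38. It stood at 137, 119 and 957 CPM in Ephb2-KO libraries 1, 2 and 3, against 126, 91.0 and 836 CPM in WT libraries 1, 2 and 3. Library 3 was the highest by far in both groups, and the groups overlapped. Dcn divided the libraries in the same way, at 295, 290 and 2348 CPM in Ephb2-KO libraries, against 267, 214 and 2344 CPM in WT libraries. For every 1000 reads of Dcn there were 465, 412 and 408 reads of Cxcl12 in Ephb2-KO libraries, against 470, 426 and 357 in WT libraries. The ratio of the 2 transcripts spanned 1.32-fold across libraries in which Cxcl12 itself spanned 10.5-fold.

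Igf1, insulin-like growth factor 1 (chromosome 10, 87858265 to 87937042, plus strand), followed Dcn nearly as closely. It stood at 2.88, 2.79 and 19.2 CPM in Ephb2-KO libraries 1, 2 and 3, against 3.13, 2.31 and 19.4 CPM in WT libraries. Reads of Igf1 per 1000 reads of Dcn were 9.74, 9.64 and 8.16 in Ephb2-KO libraries, against 11.7, 10.8 and 8.26 in WT libraries. Its level spanned 8.37-fold and the ratio 1.44-fold, and the groups overlapped on both.

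Kitl (chromosome 10, 100015630 to 100100413, plus strand) was also highest in the libraries numbered 3, but it separated the other numbers as well. Its values were 17.7, 41.0 and 94.0 CPM in Ephb2-KO libraries 1, 2 and 3, against 14.8, 34.9 and 89.4 CPM in WT libraries. Dcn was near level between numbers 1 and 2, so Kitl per 1000 Dcn reads was 60.03, 142 and 40.0 in Ephb2-KO libraries, against 55.4, 163 and 38.1 in WT libraries. Library 2 had the highest ratio in each group.

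Bmp4, a bone morphogenetic protein (chromosome 14, 46383520 to 46390669, minus strand), was the lowest of the 10 and rested on few reads. It had 17, 5 and 42 counts in Ephb2-KO libraries 1, 2 and 3, against 23, 8 and 33 counts in WT libraries. The exact Poisson interval (95%, counting error only) of the 5 counts ran from 1.62 to 11.7. In CPM it stood at 0.479, 0.225 and 2.06 in Ephb2-KO libraries, against 0.616, 0.314 and 1.36 in WT libraries. Library 3 was again the highest of each group, and per 1000 Dcn reads there were 1.62, 0.778 and 0.879 Bmp4 reads in Ephb2-KO libraries, against 2.30, 1.47 and 0.581 in WT libraries.

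**Figure D1:**
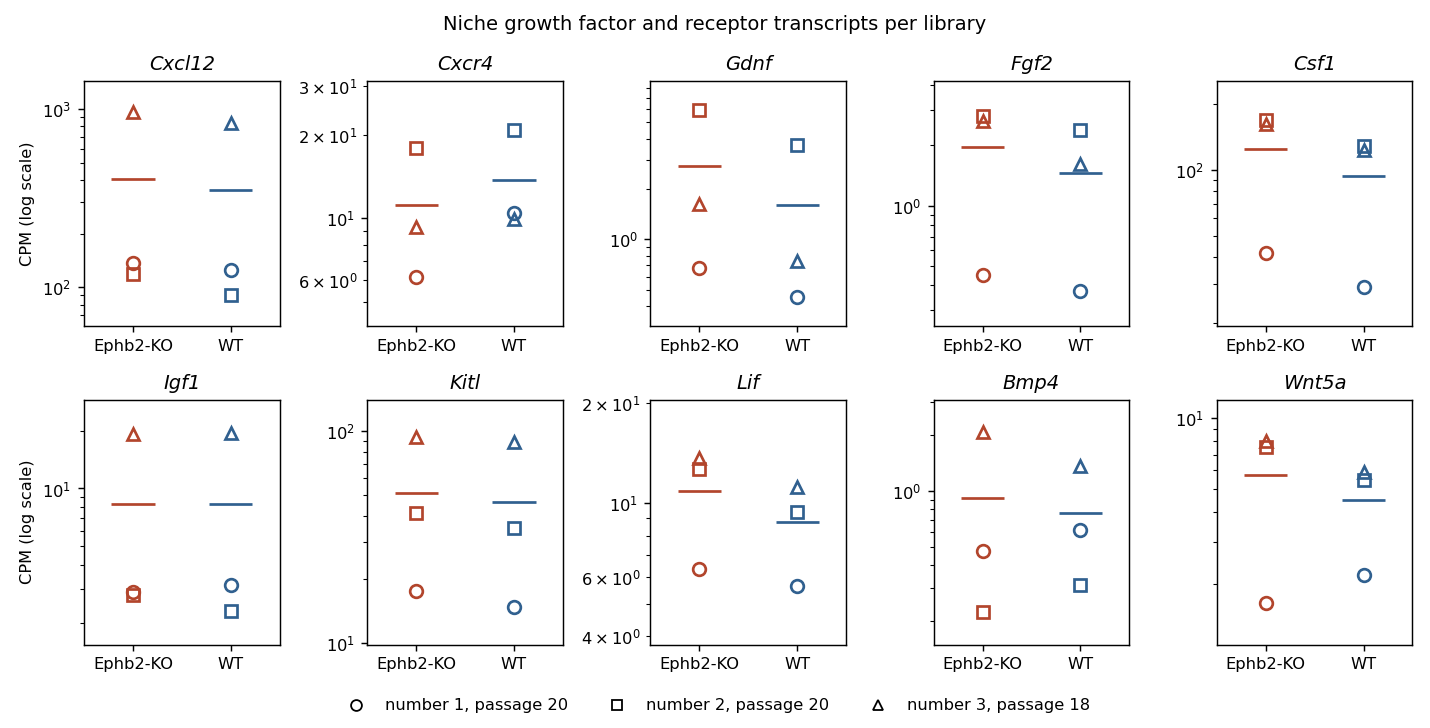
CPM on a log scale for each of the 10 genes, with Ephb2-KO libraries left and WT libraries right; marker shapes give the line number and passage, and bars the group means (n = 3). Cxcl12, Igf1, Kitl, Bmp4, Lif and Wnt5a were highest in the libraries numbered 3 of both groups. Kitl, Csf1, Wnt5a, Fgf2, Lif and Gdnf were lowest in those numbered 1.

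The remaining ligands were, like Kitl, lowest in number 1 of both groups, and Wnt5a and Lif were also highest in number 3. Csf1 (chromosome 3, 107741048 to 107760469, minus strand) stood at 41.5, 169 and 162 CPM in Ephb2-KO libraries 1, 2 and 3, against 29.0, 128 and 123 CPM in WT libraries. Numbers 2 and 3 were nearly level, although Dcn differed several-fold between them. Csf1 reads per 1000 Dcn reads were therefore 141, 585 and 68.9 in Ephb2-KO libraries, against 109, 602 and 52.6 in WT libraries, an 11.4-fold span. Wnt5a, a Wnt ligand known for signalling without beta-catenin (chromosome 14, 28504750 to 28527447, plus strand), stood at 1.66, 7.56 and 7.96 CPM in Ephb2-KO libraries, against 2.17, 5.49 and 5.90 CPM in WT libraries. Fgf2, a fibroblast growth factor often added to these cultures as protein (chromosome 3, 37312519 to 37405377, plus strand), stood at 0.451, 2.79 and 2.65 CPM in Ephb2-KO libraries, against 0.375, 2.39 and 1.61 CPM in WT libraries. Both were lowest in library 1 of each group, as Csf1 was. Lif (chromosome 11, 4257557 to 4272514, plus strand) had the narrowest span of the 10, 2.42-fold, at 6.37, 12.7 and 13.7 CPM in Ephb2-KO libraries, against 5.65, 9.44 and 11.2 CPM in WT libraries.

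Gdnf (chromosome 15, 7811011 to 7837575, plus strand) and Cxcr4 were highest in library 2 of both groups. Gdnf stood at 0.677, 5.90 and 1.62 CPM in Ephb2-KO libraries 1, 2 and 3, against 0.455, 3.64 and 0.743 CPM in WT libraries, which came from 24, 131 and 33 counts and 17, 93 and 18 counts. Its 12.95-fold span was the widest of the 10 genes, while Dcn was near level between numbers 1 and 2. Cxcr4 (chromosome 1, 128588199 to 128592293, minus strand) stood at 6.15, 17.9 and 9.33 CPM in Ephb2-KO libraries, against 10.5, 20.8 and 9.94 CPM in WT libraries. Against 1000 Dcn reads there were 20.8, 61.7 and 3.97 Cxcr4 reads in Ephb2-KO libraries, against 39.2, 97.3 and 4.24 in WT libraries.

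**Figure D2:**
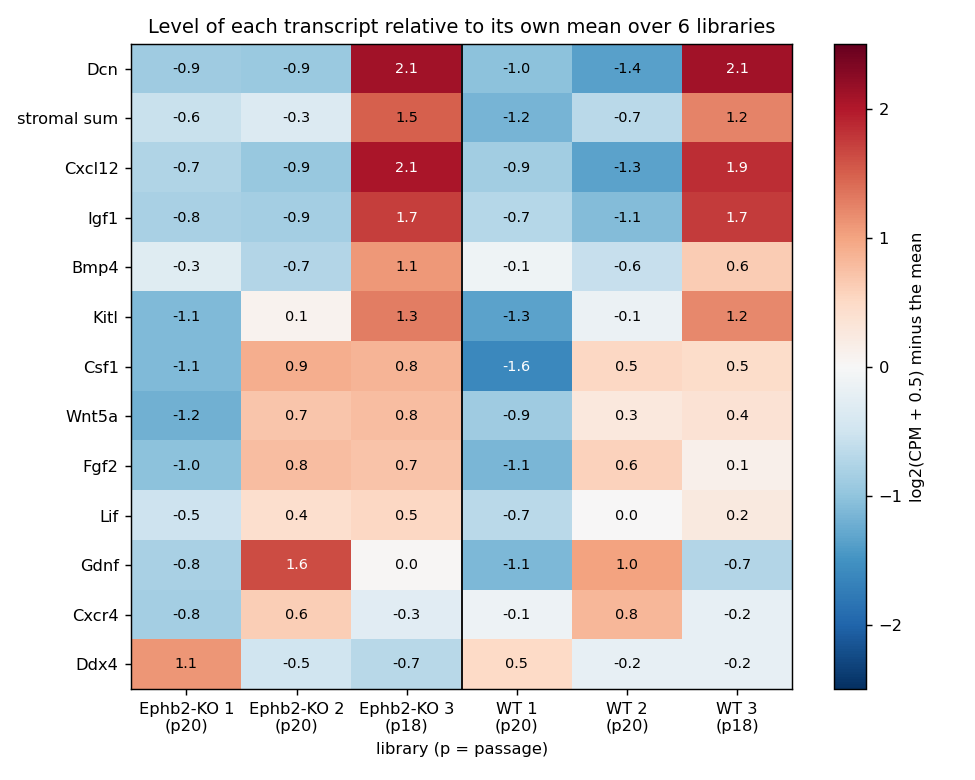
Heat map of log2(CPM + 0.5) minus each row's mean over the 6 libraries, Ephb2-KO libraries left of WT libraries, for Dcn, the stromal sum, the 10 genes and the germ cell gene Ddx4. Cxcl12 and Igf1 show the colours of Dcn in each library, Kitl and Bmp4 in part, and Gdnf, Cxcr4 and Ddx4 do not.

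To set these patterns on 1 scale, the spread of each gene over the 6 libraries, as the SD of log2(CPM + 0.5), was compared with the SD of its log2 ratio to Dcn. A gene that moves in proportion to Dcn has a ratio SD near 0. Cxcl12 had an SD of 1.53 alone and 0.147 relative to Dcn, and Igf1 had 1.35 alone and 0.303 relative to Dcn. Kitl had 1.11 alone and 0.907 relative to Dcn. These 3 of the 10 genes varied less relative to Dcn than alone, where 6.59% of 14865 measured genes did (mean of at least 0.5 CPM). Of measured genes, 0.0471% had a smaller ratio SD than Cxcl12, 0.511% a smaller one than Igf1 and 6.80% a smaller one than Kitl. The libraries share a culture system and may be paired by number, so these are descriptions with no test. Dcn carries the whole comparison, and against the stromal sum Bmp4 (0.612, against 0.713 alone) and Csf1 (0.951, against 1.08 alone) also varied less. The order changed too: relative to the stromal sum Kitl had the smallest ratio SD of the 10 (0.412), then Igf1 (0.446) and Cxcl12 (0.567). That Cxcl12 followed most closely therefore holds for Dcn and not for the stromal sum.

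Bmp4, at 1.004 relative to Dcn and 0.713 alone, lies close to the pseudocount of 0.5 CPM, which narrows its spread. Gdnf (2.21 relative to Dcn, 1.11 alone) and Cxcr4 (1.95, against 0.621 alone) had the widest ratios to Dcn of the 10. Values for Fgf2, Csf1, Wnt5a and Lif lay between, with ratio SDs of 1.58, 1.52, 1.42 and 1.402. Relative to Ddx4, a germ cell RNA helicase, no gene of the 10 varied less than alone, with SDs of the ratio from 1.13 for Bmp4 to 1.92 for Cxcl12. For Cxcr4 this SD was 1.15. Ddx4 is a single reference, and most germ cell transcripts also varied more relative to it than alone, Gfra1 among them (0.885, against 0.505 alone). Only Zbtb16, Sall4 and Lin28a varied less (0.360, against 0.552 alone, for Lin28a). This measure therefore cannot tell whether a gene of the 10 follows germ cell transcripts.

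The libraries numbered 3 widen every such measure, so it was repeated over the 4 libraries at passage 20, where Bmp4 fell under the 0.5 CPM minimum and was not measured. There Cxcl12 had an SD of 0.255 alone and 0.0933 relative to Dcn, and Igf1 had 0.156 alone and 0.135 relative to Dcn. Igf1 rested there on 102 and 62 counts in Ephb2-KO libraries 1 and 2, and 117 and 59 in WT libraries. Their exact Poisson intervals (95%, counting error only) all overlapped in CPM, from 2.59 to 3.76 in WT library 1 and 1.76 to 2.98 in WT library 2. The SDs of Igf1 at passage 20 therefore cannot show whether it followed Dcn there. Kitl no longer varied less relative to Dcn (0.799, against 0.706 alone), nor did it without WT library 1. Cxcl12 and Igf1 did so in every library set left after dropping 1 library.

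**Figure D3:**
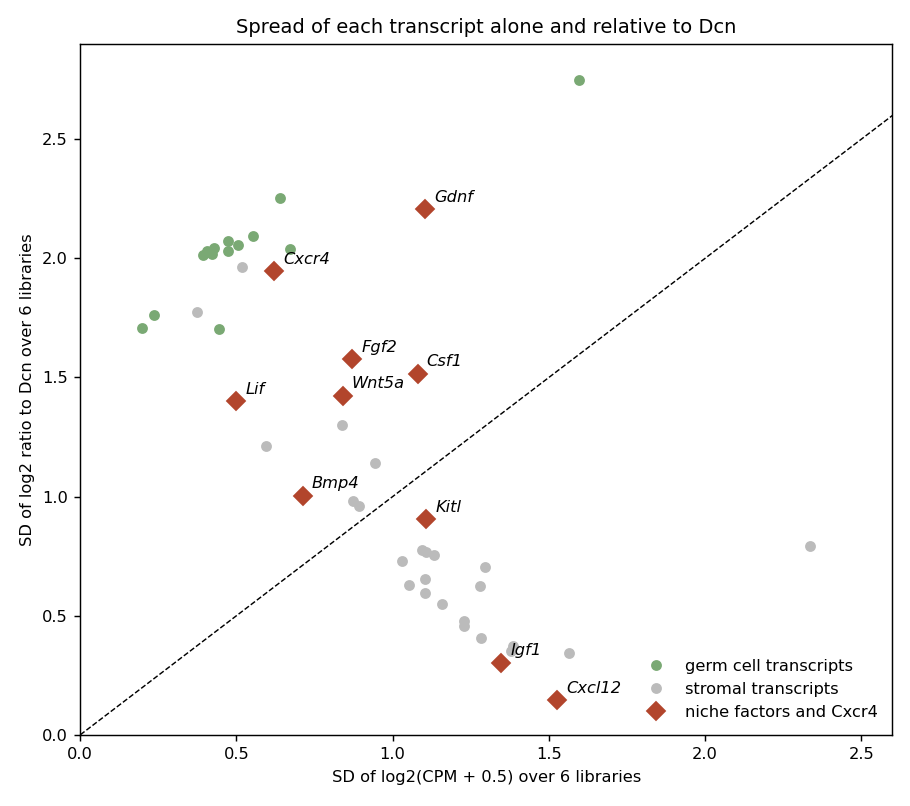
SD of log2(CPM + 0.5) over the 6 libraries (horizontal) against the SD of the log2 ratio to Dcn (vertical), for the 10 genes, the stromal transcripts and the germ cell transcripts; points below the dashed line varied less relative to Dcn than alone. Cxcl12 (0.147) and Igf1 (0.303) lie at the lower right, below every stromal transcript plotted. Gdnf and Cxcr4 lie at the height of germ cell transcripts, but Twist1 (1.96) and Thy1 (1.77) of the stromal list lie there too. The median over all measured genes was 1.68, so this height is not particular to germ cell transcripts.

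Lists of other secreted factors gave the wider setting. Of 24 stromal transcripts other than Dcn, 17 varied less relative to Dcn than alone, and of 15 measured germ cell transcripts 0 did. Among 40 other measured growth factor ligands there were 7: Fgf10, Pdgfc, Tgfb2, Ccl9, Hgf, Ptn and Rspo3. Hepatocyte growth factor, Hgf, had a ratio SD of 0.447, at 4.68, 8.15 and 39.5 CPM in Ephb2-KO libraries 1, 2 and 3, against 4.93, 6.00 and 33.2 CPM in WT libraries. Among 21 secreted inhibitors and binding proteins there were 10. Igfbp7, which binds insulin-like growth factors, had a ratio SD of 0.203, at 29.2, 20.3 and 216 CPM in Ephb2-KO libraries, against 22.2, 15.5 and 169 CPM in WT libraries. Ackr3, the second receptor of Cxcl12, was the only 1 of 22 measured receptor genes, Cxcr4 counted among them, with a ratio SD of 0.646. Hgf, Igfbp7 and the ligands listed by name here were chosen after their values were seen.

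The genes most like each member were found by the smallest SD over the 6 libraries of the log2 ratio between both, among 11389 genes of at least 5 CPM. For Cxcl12 these were Lpar1, a lysophosphatidic acid receptor (0.0469), Serpina3g (0.0648) and Sspn (0.0675). Lpar1 stood at 45.0, 38.7 and 301 CPM in Ephb2-KO libraries 1, 2 and 3, against 41.1, 30.0 and 291 CPM in WT libraries. Igf1 was nearest to Kcne4 (0.0848), Lsp1 (0.0948) and Enpp2 (0.109), and Kitl to Anxa5, encoding annexin A5 (0.0662), Ces2g (0.108) and Tlr4 (0.113). The level pattern of Csf1 was nearest to those of Fam129b (0.131), Lbh (0.144) and Dab2 (0.158). Wnt5a was nearest to Svop (0.130), Stard13 (0.166) and Pdlim5 (0.195), Fgf2 to Parvb (0.114), Ctgf (0.172) and Adam12 (0.178), and Lif to Arhgap22 (0.0382), Ybx3 (0.0793) and Wdr83os (0.0823). For Gdnf the nearest were Dusp4, a phosphatase that acts on MAP kinases (0.190), Tnfrsf21 (0.246) and Ptprn (0.255). Dusp4 stood at 5.50, 32.2 and 11.6 CPM in Ephb2-KO libraries, against 5.41, 26.7 and 8.21 CPM in WT libraries. Cxcr4 was nearest to Anpep (0.122), Fgl1 (0.145) and Med14 (0.152). Bmp4 was below the set level of 1 CPM and was not compared. None of these genes was in the stromal list, but that list has only 25 genes, beside 11389 compared. The lack of a match therefore cannot show whether the nearest genes are stromal.

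The labels give passage for each line, so passage 20 (4 libraries) was compared with passage 18 (2 libraries) in an edgeR fit with genotype as a second term, added after the values had been seen. Of the 10 genes, 4 were lower at passage 20 and 0 were higher at an adjusted p under 0.05, where 15.4% of all tested genes were lower and 10.4% higher (25.8% in all). Cxcl12 averaged 118 CPM at passage 20 and 896 CPM at passage 18, a log2 fold change of -2.92 (SE 0.17, edgeR adjusted p = 0.000193). Igf1 averaged 2.78 CPM at passage 20 and 19.2 CPM at passage 18 (log2 fold change -2.79, SE 0.26, adjusted p = 0.000638). Kitl had -1.77 (SE 0.40, adjusted p = 0.0178) and Bmp4 -2.02 (SE 0.54, adjusted p = 0.0327). The passage ranges did not overlap in these 4 genes, but that was common: the same held for 53.5% of all tested genes, and 26.9% of all tested genes were lower in every passage 20 library. Dcn itself had -3.15 (SE 0.17, adjusted p = 0.000192), and of 25 stromal transcripts 21 were lower at passage 20.

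The other 6 genes did not pass in the passage comparison. Gdnf had a log2 fold change of 1.21 (SE 1.05), Cxcr4 0.50 (SE 0.48), Wnt5a -0.71 (SE 0.61), Csf1 -0.63 (SE 0.67), Lif -0.55 (SE 0.36) and Fgf2 -0.49 (SE 0.86). Passage 18 is held only by the lines numbered 3, so passage, line number and the amount of stromal RNA cannot be told apart. If same-numbered lines share a parent culture, passage 18 is 1 culture and these p-values are too small. With 1 passage 18 library left, fewer passed: Cxcl12 without WT library 3 (adjusted p = 0.0194), and Cxcl12 and Igf1 without Ephb2-KO library 3. Leaving out WT library 2 or either of Ephb2-KO libraries 1 and 2 ended the call of Bmp4 (adjusted p from 0.0511 to 0.0694).

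Of 23 tested receptor genes for these ligands, Cxcr4 counted among them, 2 were lower at passage 20 and 3 higher. That is near the shares over all tested genes, 15.4% lower and 10.4% higher. The lower ones were Ackr3, with a log2 fold change of -2.60 (SE 0.54, edgeR adjusted p = 0.0138), and Fgfr2, a fibroblast growth factor receptor, with -0.995 (SE 0.24, adjusted p = 0.0224). Higher at passage 20 were Kit (1.74, SE 0.28, adjusted p = 0.00517), Ret (1.20, SE 0.21, adjusted p = 0.00697) and Igf1r (1.30, SE 0.28, adjusted p = 0.0160). Of 15 tested germ cell transcripts 8 were higher at passage 20 and 0 lower, Ret among them, beside the same 10.4% higher and 15.4% lower over all tested genes. Kit stood at 82.7, 68.8 and 21.6 CPM in Ephb2-KO libraries 1, 2 and 3, against 50.5, 93.9 and 22.7 CPM in WT libraries, so its order of libraries was the reverse of that of its ligand Kitl for number 3. Gfra1, the receptor subunit that binds Gdnf, stood at 149, 232 and 125 CPM in Ephb2-KO libraries, against 147, 246 and 100 CPM in WT libraries.

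Per kilobase of exon, the highest means among receptors were those of Ryk, which binds Wnt ligands (59.9 CPM per kilobase), Gfra1 (30.4), Fgfr1 (23.4), the bone morphogenetic protein receptor gene Bmpr1a (21.4) and Ret (19.1). Il6st, the signalling subunit for Lif, had 12.8 CPM per kilobase and its partner Lifr 4.31. Ror2, a receptor of Wnt5a, had 10.2, Kit 9.72 and Igf1r 9.31 CPM per kilobase. The lowest was Csf1r, the receptor of Csf1 and a macrophage marker, at 0.1001 CPM per kilobase, whose CPM ran from 0.135 to 1.13 in Ephb2-KO libraries and from 0.274 to 0.536 in WT libraries. Csf1 transcript was therefore present at 20.7 CPM per kilobase in cultures with scant transcript of its receptor.

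**Figure D4:**
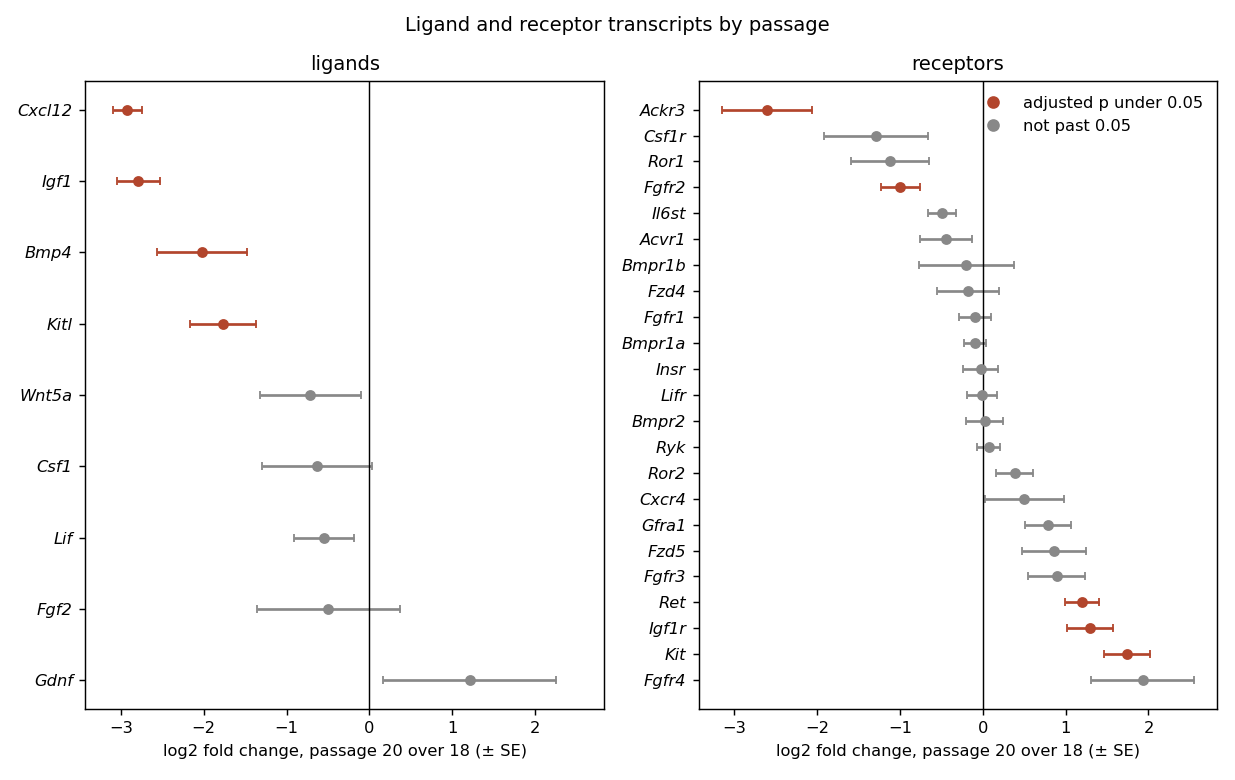
Log2 fold change, passage 20 over passage 18, with SE, for the 9 ligand genes (left) and 23 receptor genes, Cxcr4 among them (right); red points had an adjusted p under 0.05. Cxcl12, Igf1, Bmp4 and Kitl were lower at passage 20, with Ackr3 and Fgfr2 among receptors, and Ret, Igf1r and Kit were higher.

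Between the groups, the question was whether the niche transcripts differed in lines labelled Ephb2-KO. None of the 10 genes passed in the edgeR quasi-likelihood test, and none had groups that did not overlap. At an adjusted p under 0.05, 0% of all 15263 tested genes passed (32 genes, 0.210%, at an unadjusted p under 0.05, and 0 of the 10), while DESeq2 called 4 genes and 0 of the 10. Over all tested genes 2.39% had groups that did not overlap. Log2 fold changes ran from -0.31 (SE 0.50) for Cxcr4 to 0.76 (SE 1.03) for Gdnf, with 9 genes above 0 and 1 below. The median of the 10 was 0.29, beside 0.01 over all tested genes. Adjusted p was 1.0 for each in edgeR. Exact permutation tests of mean log2(CPM + 0.5), two-sided, gave p from 0.5 to 1.0, where 3 against 3 libraries cannot go below 0.1. Csf1, for example, averaged 124 ± 71.7 CPM in Ephb2-KO libraries and 93.6 ± 55.9 CPM in WT libraries (SD, n = 3 each).

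Libraries with the same number deviated together, so a fit that takes the number as a block and compares lines within pairs is given beside it. The block narrowed the errors, and again 0 of the 10 genes passed, where 0.0262% of all tested genes did. Csf1 had the smallest p of the 10, at 0.43 on the log2 scale (SE 0.11, unadjusted p = 0.00233, adjusted p = 0.741). It was higher in 3 of 3 pairs, by 0.51, 0.40 and 0.39 on the log2 scale, with a 95% interval of 1.14 to 1.60 for the fold. Gdnf was higher in 3 of 3 pairs too, with 0.79 (SE 0.33, unadjusted p = 0.0380, adjusted p = 0.741) and an interval of the fold from 1.04 to 2.87. At an unadjusted p under 0.05 these were 2 of the 10, where 6.47% of all tested genes passed that bound.

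In the blocked fit Cxcl12 had 0.24 (SE 0.12) on the log2 scale, Kitl 0.19 (SE 0.12), Lif 0.29 (SE 0.18) and Fgf2 0.41 (SE 0.35), each higher in 3 of 3 pairs. Cxcr4, at -0.36 (SE 0.19), was lower in 3 of 3 pairs, most so in pair 1 (-0.72) and least in pair 3 (-0.09). Values near 0 were those of Igf1 (0.03, SE 0.20) and Bmp4 (0.02, SE 0.48), and Wnt5a had 0.19 (SE 0.26). Intervals of the blocked fold excluded a doubling for Cxcl12 (0.988 to 1.41), Kitl (0.943 to 1.37), Igf1 (0.749 to 1.395), Lif (0.927 to 1.62) and Wnt5a (0.772 to 1.69), and did not exclude it for Gdnf, Fgf2 (0.778 to 2.28) or Bmp4 (0.490 to 2.10). That of Cxcr4 ran from 0.580 to 1.05.

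In all, 6 of the 10 were higher in 3 of 3 pairs and 1 was lower, where 15.6% of all tested genes were higher and 12.3% lower (27.9% either way). The stromal list moved the same way, with 19 of 25 tested members higher in 3 of 3 pairs and 0 lower, and its sum was higher in the Ephb2-KO library of each pair. Its part in the ligand values was not tested. Of the 7 genes that went 1 way in all pairs, 2 also did so per 1000 Dcn reads: Gdnf was higher in Ephb2-KO in 3 of 3 pairs (2.29, 20.4 and 0.690 in Ephb2-KO libraries 1, 2 and 3, against 1.70, 17.1 and 0.317 in WT libraries), and Cxcr4 was lower in 3 of 3. The other 5 did not. Csf1, Kitl, Fgf2 and Lif per 1000 Dcn reads were higher in Ephb2-KO in pairs 1 and 3 and lower in pair 2, and Cxcl12 was higher in pair 3 alone. Some of these gaps were small: Lif stood at 21.6 in Ephb2-KO and 21.1 in WT in pair 1, and at 43.9 and 44.2 in pair 2. Fgf2 in pair 1 rested on 16 and 14 counts, with overlapping Poisson intervals (9.15 to 26.0 and 7.65 to 23.5). In pair 1 Gdnf rested on 24 and 17 counts, whose exact Poisson intervals (95%, counting error only) overlapped (15.4 to 35.7 and 9.90 to 27.2). These ratios also depend on the choice of Dcn. In pair 1 Dcn differed less (295 CPM in Ephb2-KO, 267 CPM in WT) than the stromal sum (8003 and 5294 CPM).

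**Figure D5:**
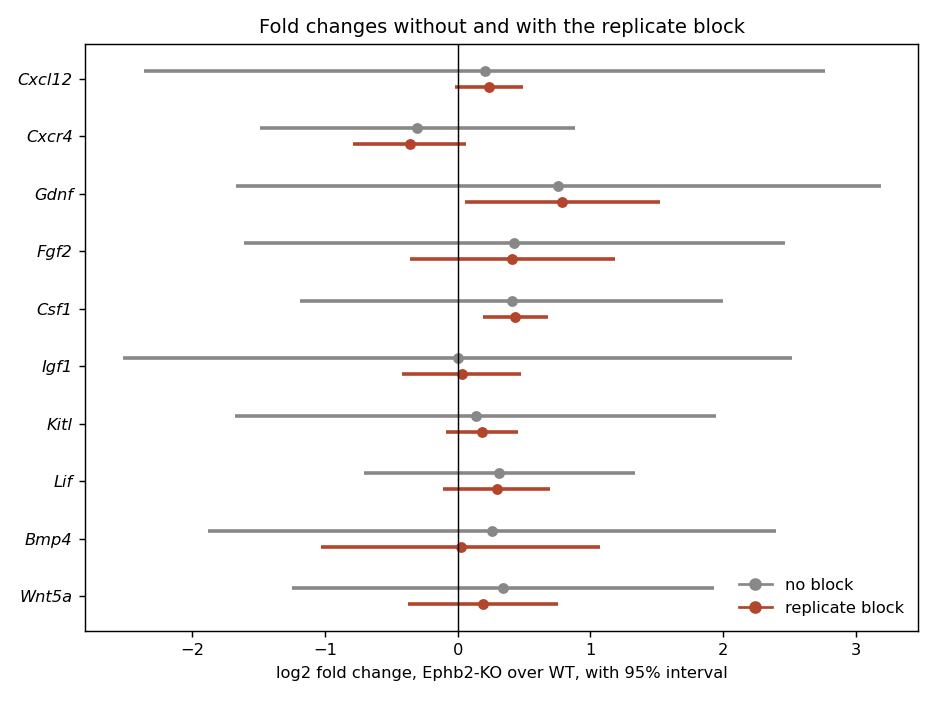
Log2 fold change, Ephb2-KO over WT, with its 95% interval for the 10 genes, without the block (grey) and with the replicate number as a block (red). Without the block every interval spans 0; with it those of Csf1 and Gdnf lie above 0, although neither gene passed after adjustment over all genes.

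Related lists gave no call between the groups either. Of 23 receptor genes 18 had a positive log2 fold change and 5 a negative one (median 0.09), and 0 passed with or without the block. Cxcr4, a gene of the 10, is also counted among these 23 and is 1 of the 5 below 0. Within the receptor list, Ror2 had the smallest p without the block, 0.37 (SE 0.27). Ackr3 had 0.05 (SE 1.11), Kit 0.05 (SE 0.62), Gfra1 0.04 (SE 0.38) and Ret 0.01 (SE 0.45). Fgfr1 had 0.26 (SE 0.22), Fgfr2 -0.05 (SE 0.46), Fgfr3 -0.0042 (SE 0.46) and Fgfr4 0.75 (SE 0.78), and Igf1r and Insr had 0.18 (SE 0.51) and 0.26 (SE 0.24). Values for Lifr and Il6st were -0.22 (SE 0.20) and 0.07 (SE 0.26), so the 2 chains of the Lif receptor lay on either side of 0. Bmpr1a, Bmpr1b, Bmpr2 and Acvr1, which bind bone morphogenetic proteins, had 0.08, -0.47, 0.22 and 0.23, the Wnt receptors Ror1 and Ryk 0.26 and 0.09, Fzd4 and Fzd5 0.16 and 0.23, and Csf1r 0.72 (SE 0.76).

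Among 40 other growth factor ligands, 34 lay above 0 and 6 below (median 0.21), and 0 passed. The 3 with the smallest p were Egf (-1.40), the Ret family ligand gene Artn (0.47) and Tgfb1 (0.43). Of 21 secreted inhibitors and binding proteins 16 lay above 0 and 5 below (median 0.10), led by Igfbp4 (0.27), Fstl3 (0.59) and Ltbp2 (0.50). The stromal list had 22 above 0 and 3 below (median 0.36), and its smallest p values were those of Thy1 (-0.48), Col5a1 (0.38) and Fbn1 (0.47). In the blocked fit 18 of its 25 members were higher and 0 lower at an unadjusted p under 0.05, where 6.47% of all tested genes passed that bound. In the edgeR fits with and without the block, adjusted over all genes, 0 members of these lists passed.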

How the data were processed

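RNA was measured in 3 lines labelled Ephb2-KO and 3 WT lines. Raw read counts by gene name are what the authors deposited. They were made with featureCounts 1.4.6-p4 on GENCODE vM3 exons with strand setting 2 and no further options, per the file headers. By that tool's defaults, reads of near-identical or overlapping same-strand genes were thus left out. STAR, FastQC and GRCm38.p3 are named per the submitters' processing notes; their versions are not stated in the sources read.

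The counts were tested with edgeR 4.0.16 under R 4.3.3, by filterByExpr, TMM scaling, robust glmQLFit and glmQLFTest without a covariate, Benjamini-Hochberg adjustment over all tested genes and a threshold of 0.05. DESeq2 1.42.0, RLE scaling, library totals, other filters, left-out libraries and a replicate block were alternatives. An SE is the log2 fold change over the square root of F. Same-numbered libraries correlated in their deviations from group means at 0.653, 0.779 and 0.896, above the set bound of 0.1, so the numbers, shared in the sample titles, were taken to pair the lines. Nothing else in the labels says that they do. P-values of the fit without the block set the group difference against the spread between lines. Those of the blocked fit set it against the spread of differences within same-numbered pairs. Those of the passage fit set the passage difference against the spread between lines within a passage. Scripts were tested on simulated data. Ratios used log2(CPM + 0.5). Libraries of 1 group differed by a chi-square of at least 84.6 per degree of freedom, so none was a duplicate.

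Named genes were the 10 members, Ephb2, Dcn, Ddx4, tested receptors of the ligands, up to 4 called or otherwise the 3 genes of smallest p in the lists of other ligands, inhibitors and stromal transcripts, and the 3 genes nearest each member. Adgre1 of the macrophage list is listed as Emr1. Members and lists were chosen with earlier results of these data known. Figures used matplotlib 3.10.9.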

Additional observations from a re-analysis of the deposited data

How the results depend on the processing

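Between the groups, none of the 10 genes passed under any alternative run, with or without the replicate block. The count of all genes past the threshold, 0 without the block, was 4 with the replicate block and 4 with DESeq2. It was 55, 3 and 7 in the blocked fit without both libraries numbered 1, 2 and 3, and 0 in each fit that left out 1 library without the block. Of the alternative fold changes of the 10 genes between groups, 127 kept their direction and 19 did not. Leaving out 1 library moved log2 fold changes over -1.45 to 1.90 for Cxcl12, -0.83 to 0.12 for Cxcr4, -0.50 to 2.19 for Gdnf, -0.035 to 0.99 for Fgf2, -0.019 to 0.82 for Csf1, -1.54 to 1.60 for Igf1, -0.66 to 1.04 for Kitl and -1.07 to 0.95 for Bmp4. Lif and Wnt5a stayed above 0. Igf1, whose value lay at 0, was -0.051 with library totals, -0.0355 with no filter and -0.067 in the blocked fit without number 2, and Bmp4 was -0.40 in the blocked fit without number 3. The filter of 5 CPM in 3 libraries left 6 of the 10 tested.

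Genes called between passages (3935) were 4171 with library totals and 3813 with RLE; leaving out 1 library gave 283 to 4068, lowest without WT library 3 (283) and Ephb2-KO library 3 (322). Of the 10 genes, 1 to 4 were then called, 1 without WT library 3 and 2 without Ephb2-KO library 3. Over 1 library left out, Kitl had adjusted p of 0.0165 to 0.227, Bmp4 0.0266 to 0.371, Igf1 0.00178 to 0.0529 and Cxcl12 0.000714 to 0.0194. The passage comparison and its alternatives were chosen after seeing the data. The number of genes that varied less relative to Dcn, 3, was 5 against the stromal sum and 5 against Col1a2, with Bmp4 and Csf1 added. It was 2 to 3 with 1 library left out, 2 of 9 without both passage 18 libraries, where Bmp4 (mean 0.408 CPM at passage 20) fell under the 0.5 CPM minimum that it meets only through those libraries, and 3 under the other settings. Bmp4, Gdnf and Fgf2 rest on at most 131 counts in any library, which limits what can be seen of them; the cause of the changes above was not tested.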
